A study of Mus musculus with 12 samples.

Results

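The 10 genes described here encode proteins that build, duplicate and equip the centrosome: Plk4, Stil, Cenpj, Cep152, Cep192, Cep135, Pcnt, Cdk5rap2, Nedd1 and Tubg1. They were chosen by name, and each was found as 1 row of the 28427 rows of the deposited gene tables; 2 of those rows carry other names too. The Tubg1 row also names Tubg2, its close paralog, so the values given for Tubg1 are those of both genes together, and the Cep152 row also names 2 transcript records. The genes were measured by RNA sequencing in mammary epithelial cells from C57BL/6 mice, in 12 libraries. Monolayers grew on collagen and spheroids within growth factor-reduced Matrigel, a basement membrane gel, for 48 h or 96 h, with 3 biological replicates in each of the 4 groups. Progesterone (1 µM) and prolactin (1 µg/mL) were in the medium of every group. The series concerns control of chromosome segregation from outside the cell, and the question here is how the RNA of centrosome genes differs by format and by time. Format and matrix changed together, so their parts in a difference cannot be told apart. The labels do not state whether the cells came from one isolation, from several animals or from a line, nor an age. The p-values therefore measure the spread between these cultures.

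A centrosome is a pair of centrioles surrounded by pericentriolar material, from which microtubules grow. Each centriole templates a single new one in S phase: the kinase PLK4, held on the old centriole by CEP192 and CEP152, phosphorylates STIL, which brings in SAS-6 and, with CENPJ (CPAP) and CEP135, lets the new wall form. Before mitosis the pericentriolar material, held together by pericentrin and CDK5RAP2, expands and takes up more γ-tubulin ring complexes through NEDD1. Too many or too few centrosomes give misshapen spindles, which is the textbook link between these genes and the partition of chromosomes.

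Libraries held 7674105 to 13554497 counts, and all 10 genes passed the filter on low counts that left 13951 genes; the lowest count of any of them was 28, for Cep152 in replicate 2 of the monolayers at 96 h. The monolayers at 48 h stood apart in one respect. Against the other replicates of the group, replicate 1 had a median log2 difference of 0.26 over genes longer than 6000 bases and -0.26 over genes shorter than 1000 bases, while replicate 3 had -0.30 and 0.25. In the long class the other 10 libraries lay between -0.08 and 0.05. The centrosome genes are mostly long, from an effective length of 1610 bases for Tubg1 to 8816 bases for Pcnt, and Cep192 had an effective length of 3640 bases in that replicate 3 against 4821 to 6150 bases in the other 11 libraries. Comparisons between groups moved with length as well: spheroids against monolayers at 96 h had a median log2 fold change of 0.46 in genes shorter than 1000 bases, -0.15 in those of 4000 to 6000 bases and -0.28 in longer ones. The plot of length classes shows the trend between libraries. Values without replicate 3, and with each library's length trend fitted out (an alternative added after the data were seen), stand beside the results whose call they change.

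**Figure D1:**
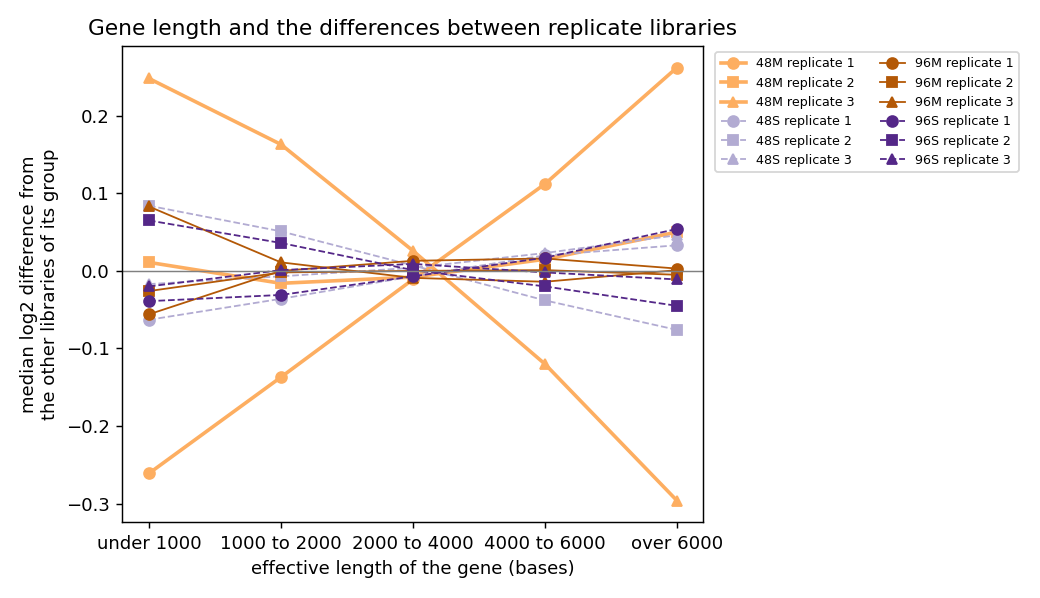
Gene length and the differences between replicate libraries, by class of effective length in bases. Each line is a library, and the vertical axis gives its median log2 difference from the other replicates of its group; replicates 1 and 3 of the 48 h monolayers (48M), at 0.26 and -0.30 in the longest class, run in opposite directions, and the others stay near 0.

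Of 9 epithelial markers, 7 had group means of at least 202.5 CPM (counts scaled to library size; that of Krt19 in the 96 h monolayers) in every group, among them Epcam at 849.8 to 1363 CPM and Krt8 at 1433 to 4249 CPM. The basal keratins did not: Krt5 had means of 76.5 CPM in monolayers and 216.4 CPM in spheroids at 48 h, and 10.02 and 131.1 CPM at 96 h, and Krt14 had 494 and 1033 CPM, and 73.6 and 907.7 CPM. Both were thus lowest in the 96 h monolayers, the group lowest in Plk4. All 9 epithelial markers together summed to 13780 to 15900 CPM in monolayers and 8634 to 9266 CPM in spheroids at 48 h. At 96 h the sums were 5479 to 5926 CPM in monolayers and 7800 to 8195 CPM in spheroids. With time in monolayers all 9 fell, with a median log2 fold change of -1.40. Genes that mark cells making many centrioles at once were nearly unread: Deup1, Mcidas, Gmnc and Ccno lay at or below 0.265 CPM in every library, and 4 of the 11 rows on that list passed the filter. The list summed to 129.9 to 171.6 CPM in monolayers and 57.7 to 63.3 CPM in spheroids at 48 h, and to 41.5 to 55.2 CPM and 80.7 to 90.8 CPM at 96 h. Most of this came from the row read as Pifo (group means of 28.5 to 114.4 CPM) and from Foxj1 (7.81 to 31.8 CPM), both named after their values were seen. The row read as Pifo carries only the name 3110003A17Rik and may be another gene. The sums of this list are therefore not a measure of multiciliated cells. Fibroblast markers, 8 of 8 tested and none at 0 throughout a group, summed to 7709 to 8471 CPM in monolayers at 48 h, 2007 to 2267 CPM in spheroids at 48 h, 1746 to 2392 CPM in monolayers at 96 h and 680.5 to 737.5 CPM in spheroids at 96 h. Col1a1 and Col1a2 carried most of the sum in the 48 h monolayers, and others did not follow it: group means in that order were 47.2, 90.8, 136.7 and 18.5 CPM for Pdgfra, 107, 192.9, 307.7 and 73.0 CPM for Dcn, and 14.6, 26.2, 4.99 and 5.69 CPM for Twist2. Endothelial markers, 7 of 7 tested and none at 0 throughout a group, summed to 41.9 to 57.0 CPM in monolayers and 28.4 to 39.2 CPM in spheroids at 48 h, and to 71.2 to 73.2 CPM and 6.98 to 8.48 CPM at 96 h. Immune markers, 4 of 8 tested, summed to 23.5 to 37.7 CPM in monolayers and 29.8 to 36.6 CPM in spheroids at 48 h, and to 43.9 to 50 CPM and 31.9 to 35.1 CPM at 96 h. Cd68 had 20.1 to 30 CPM in the 96 h monolayers and at most 6.06 CPM in any other library, while Ptprc and Cd3e were at or near 0 (at most 0.445 CPM). Itgam had a higher mean count over the 12 libraries than Cd68, 214.9 against 101.2. The tested immune markers did not move as one: of the 4, 1 rose and 2 fell in spheroids against monolayers at 96 h. Of 6 adipocyte markers, the 5 other than Adipor2 had group means of at most 2 CPM. Of the 6, 2 were tested, and both rose in spheroids at each time. Their log2 fold changes were 0.30 and 7.48 at 48 h, and 0.47 and 3.63 at 96 h. The basal keratins, Pdgfra, Dcn, Twist2, Cd68 and Itgam were named after their values were seen, and the part of these markers in the results below was not tested. In bulk RNA, fewer cells of a type and less RNA per cell cannot be told apart.

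Promoter sequence was at hand for 7 of the 10 genes, from RefSeq on GRCm38.p6, another build than the mm9 of the counts. Windows from 250 bases before to 50 bases after the start were searched on both strands for 3 strings chosen with the expression values known: GCGGGAA, the core of many E2F sites, CCAAT, the box read by NF-Y, and TTTGAA, the cell cycle homology region. GCGGGAA was in the windows of Plk4, Stil, Cep152 and Pcnt, 4 of 7, and in those of 5.29% of the 27025 genes searched. CCAAT was in the windows of Stil and Cep152, 3 times each, and of Pcnt and Cep135, 1 time each, and in 41.1% of genes. TTTGAA was in that of Cdk5rap2 alone among the 7, against 20.2% of genes. The strings do not overlap one another in these windows. A match is a run of letters, not a known binding site. The 250 bases before the start are shown, 5′ to 3′ on the strand of the gene, for the 4 genes with a GCGGGAA match and for Cep135, which passed in no comparison. Capitals mark matches to GCGGGAA or CCAAT on either strand (TTCCCGC and ATTGG when on the other). They come from chr3:40799701-40799950 (Plk4, plus strand), chr4:114999868-115000117 (Stil, plus), chr2:125625114-125625363 (Cep152, minus), chr10:76442913-76443162 (Pcnt, minus) and chr5:76588449-76588698 (Cep135, plus).
Plk4: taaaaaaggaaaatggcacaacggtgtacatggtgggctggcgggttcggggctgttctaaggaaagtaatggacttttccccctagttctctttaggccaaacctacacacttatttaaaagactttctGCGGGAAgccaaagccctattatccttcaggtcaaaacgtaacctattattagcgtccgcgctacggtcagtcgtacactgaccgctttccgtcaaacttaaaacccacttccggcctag
Stil: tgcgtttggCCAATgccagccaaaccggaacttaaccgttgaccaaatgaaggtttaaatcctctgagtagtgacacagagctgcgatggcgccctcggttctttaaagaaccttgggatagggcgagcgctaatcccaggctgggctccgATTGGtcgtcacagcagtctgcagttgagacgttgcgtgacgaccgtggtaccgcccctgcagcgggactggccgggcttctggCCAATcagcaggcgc
Cep152: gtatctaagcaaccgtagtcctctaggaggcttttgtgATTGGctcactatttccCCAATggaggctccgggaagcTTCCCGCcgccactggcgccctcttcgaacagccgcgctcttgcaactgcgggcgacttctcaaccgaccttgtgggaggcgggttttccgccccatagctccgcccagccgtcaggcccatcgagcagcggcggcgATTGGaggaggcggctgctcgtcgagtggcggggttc
Pcnt: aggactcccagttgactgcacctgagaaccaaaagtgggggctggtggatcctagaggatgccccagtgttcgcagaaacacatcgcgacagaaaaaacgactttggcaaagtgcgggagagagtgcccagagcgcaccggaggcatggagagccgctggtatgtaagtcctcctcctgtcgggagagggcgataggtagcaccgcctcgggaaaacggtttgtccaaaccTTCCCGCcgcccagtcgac
Cep135: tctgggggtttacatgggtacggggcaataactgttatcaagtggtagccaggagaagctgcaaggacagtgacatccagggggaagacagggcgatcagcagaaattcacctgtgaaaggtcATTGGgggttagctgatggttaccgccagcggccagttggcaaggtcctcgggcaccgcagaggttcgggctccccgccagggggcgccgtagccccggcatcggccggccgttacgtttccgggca
The GCGGGAA match of Plk4 lies 120 to 114 bases before the start, that of Cep152 174 to 168 bases before it and that of Pcnt 19 to 13 bases before it. Those of Stil, 43 to 49 bases after the start, and the CCAAT match of Pcnt, 37 to 41 bases after it, fall outside the bases shown. Cenpj, which rose in spheroids at 96 h like the 4 genes with a match, had none of the 3 strings.

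Between genes, levels were compared per length, as FPKM (fragments scaled to gene length and library size). Tubg1 (with Tubg2) was the most abundant in every group, with group means of 17.9 to 31.7 FPKM, and Cep152 the least, with 0.980 to 2.25 FPKM. Between them Plk4 moved over ranks 2 to 8 of 10. Plk4 stood at rank 4 in monolayers at 48 h at 8.67 ± 0.518 FPKM (SD, n = 3), its libraries overlapping those of Cep192 above it at 9.46 ± 0.607. In spheroids it stood at rank 3 at 48 h, at 10.8 ± 0.893 FPKM and apart from its neighbours, and at rank 2 at 96 h, at 13.9 ± 1.65 FPKM, where it overlapped Nedd1 at 13.3 ± 0.0862. In monolayers at 96 h it was at rank 8, at 2.48 ± 0.176 FPKM, overlapping Cenpj at 2.53 ± 0.161 and above only Stil and Cep152. Other neighbours that overlapped were Cenpj and Cep135 in both spheroid groups and in monolayers at 48 h, Cdk5rap2 and Pcnt in both monolayer groups, Pcnt and Cep135 in monolayers at 96 h, Cdk5rap2 and Stil in both spheroid groups, and Cep135 and Cep152 in spheroids at 48 h.

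Values per library are given in CPM, a scale on which only libraries of the same gene are compared. Plk4, the kinase that starts duplication, had 32.3, 30.9 and 34.5 CPM in monolayers and 41.0, 36.3 and 37.1 CPM in spheroids at 48 h, and 7.52, 8.52 and 8.996 CPM in monolayers and 47.4, 43.5 and 56.2 CPM in spheroids at 96 h. The 96 h monolayers were the low group by a wide gap, and no pair of groups overlapped. Stil, the substrate of PLK4 at the new centriole, had 37.6, 33.1 and 27.9 CPM in monolayers and 26.6, 23.7 and 25.6 CPM in spheroids at 48 h, and 8.08, 9.90 and 10.9 CPM in monolayers and 30.4, 32.3 and 28.7 CPM in spheroids at 96 h. It shared the low 96 h monolayers, and at 48 h its monolayers were the higher format, without overlap in CPM. In FPKM the formats overlapped at 48 h, at 4.98 to 6.92 in monolayers and 4.66 to 5.22 in spheroids.

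Cep152, which holds PLK4 on the parent centriole, had 9.32, 8.46 and 9.31 CPM in monolayers and 12.7, 10.4 and 13.1 CPM in spheroids at 48 h, and 5.92, 3.51 and 6.09 CPM in monolayers and 13.8, 11.2 and 12.2 CPM in spheroids at 96 h. Both spheroid groups lay above both monolayer groups and overlapped each other. Cep192, the other anchor of PLK4 and an organiser of the pericentriolar material, had 57.9, 49.5 and 39.8 CPM in monolayers and 56.6, 49.8 and 52.1 CPM in spheroids at 48 h, and 33.8, 38.7 and 32.3 CPM in monolayers and 60.2, 50.9 and 55.0 CPM in spheroids at 96 h. The 96 h monolayers stood apart from the rest, and its low value of 39.8 CPM at 48 h came from the library in which the gene's effective length was short. Cenpj, which sets the growth of the centriole wall, had 14.4, 13.5 and 15.3 CPM in monolayers and 13.6, 11 and 11.1 CPM in spheroids at 48 h, and 10.96, 10.8 and 9.88 CPM in monolayers and 14.5, 13.7 and 14.9 CPM in spheroids at 96 h. The range of its groups was narrow beside that of Plk4 and Stil. Cep135, a protein of the cartwheel base that links it to the wall, had 16.7, 17.3 and 16.3 CPM in monolayers and 16.9, 14.6 and 11.1 CPM in spheroids at 48 h, and 17.1, 18.7 and 16.2 CPM in monolayers and 17.6, 16.5 and 16.9 CPM in spheroids at 96 h. Its groups overlapped in every comparison.

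Pcnt, the pericentrin scaffold of the pericentriolar material, had 44.9, 38.5 and 28.6 CPM in monolayers and 55.7, 61.3 and 61.9 CPM in spheroids at 48 h, and 31.0, 33.8 and 30.2 CPM in monolayers and 68.7, 63.9 and 63.0 CPM in spheroids at 96 h. All spheroids were above all monolayers. Cdk5rap2, which binds and activates γ-tubulin complexes, had 28.3, 27.5 and 21.3 CPM in monolayers and 28.4, 31.9 and 26.1 CPM in spheroids at 48 h, and 20.5, 20.5 and 22.1 CPM in monolayers and 36.0, 33.3 and 37.8 CPM in spheroids at 96 h. Formats overlapped at 48 h and were apart at 96 h. Nedd1, the adaptor of γ-tubulin complexes, had 45.7, 51.8 and 45.3 CPM in monolayers and 42.9, 41.1 and 44.4 CPM in spheroids at 48 h, and 49.0, 44.6 and 43.2 CPM in monolayers and 46.9, 47.3 and 47.7 CPM in spheroids at 96 h. Its libraries all lay between 41.1 and 51.8 CPM. Tubg1 with Tubg2, γ-tubulin itself, had 36.9, 33.9 and 37.3 CPM in monolayers and 46.4, 51.7 and 46.5 CPM in spheroids at 48 h, and 29.7, 24.3 and 29.0 CPM in monolayers and 54.8, 50.7 and 47.5 CPM in spheroids at 96 h. Here too every spheroid was above every monolayer.

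**Figure D2:**
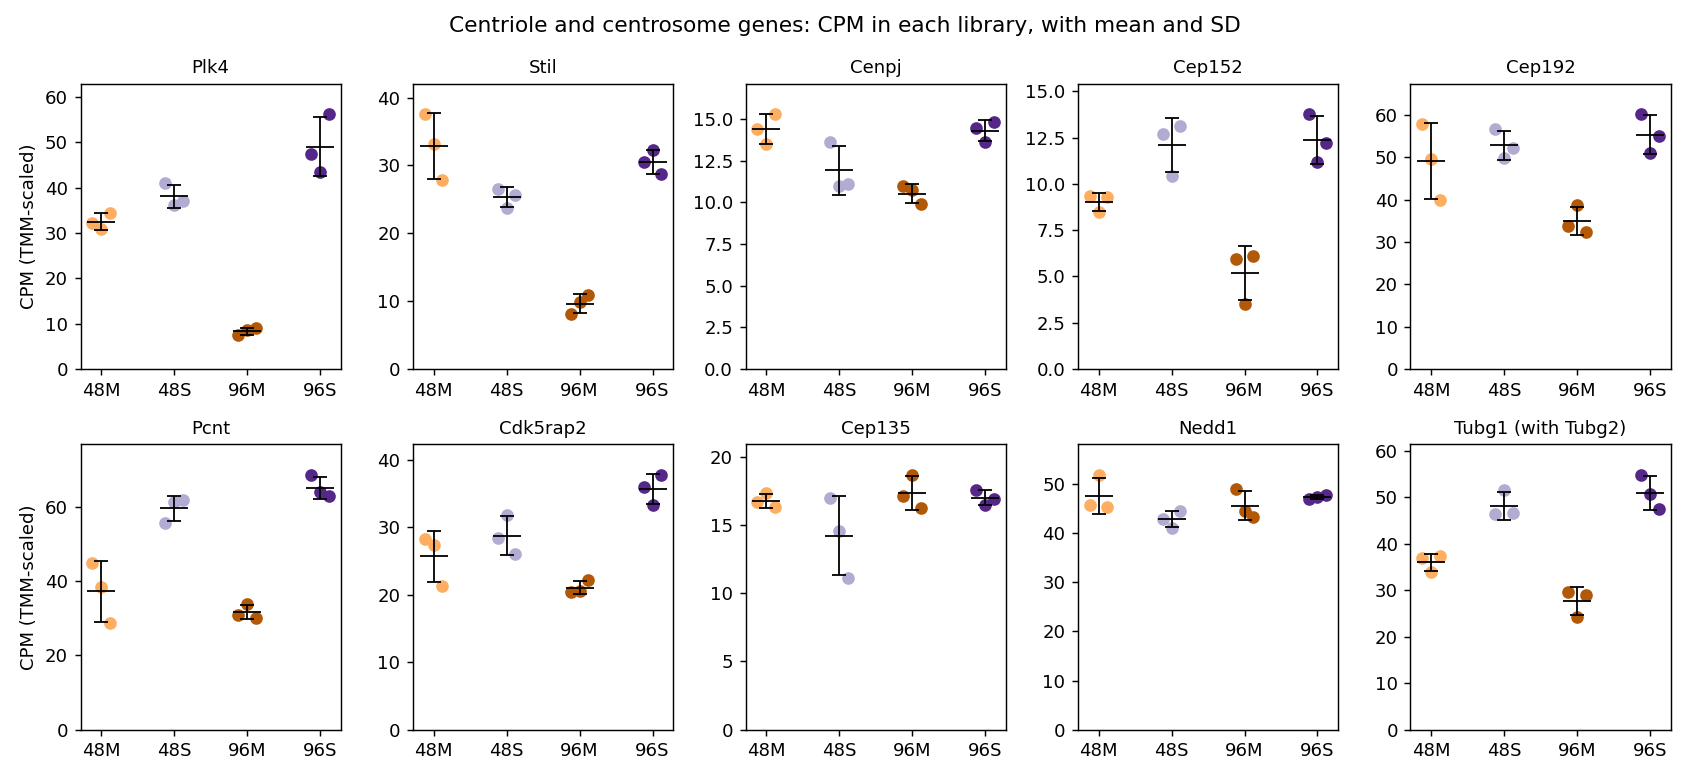
CPM of each of the 10 genes (vertical axis, from 0) in every library, by group (48M and 96M, monolayers at 48 h and 96 h; 48S and 96S, spheroids), with the mean and SD of 3 replicates. Plk4 and Stil are lowest in 96M, at 7.52 to 8.996 and 8.08 to 10.9 CPM, and the formats overlap for Nedd1 and Cep135 at 96 h.

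At 96 h, 8 of the 10 genes rose in spheroids against monolayers and none fell; over all tested genes 73.8% passed the test, 37.3% upwards and 36.5% downwards. The rise was greatest in Plk4, Stil and Cep152. Plk4 was 5.90-fold higher (log2 fold change 2.56 ± 0.11 SE; edgeR quasi-likelihood test, adjusted p = 3.83e-13), Stil 3.19-fold higher (1.67 ± 0.12, adjusted p = 6.4e-10) and Cep152 2.33-fold higher (1.22 ± 0.16, adjusted p = 1.82e-06). The pericentriolar scaffold genes had smaller changes: Pcnt was 2.07-fold higher (adjusted p = 1.03e-07) and Cdk5rap2 1.70-fold (adjusted p = 2.83e-06). Tubg1 with Tubg2 was 1.83-fold higher (adjusted p = 3.5e-08), Cep192 1.60-fold (adjusted p = 2.36e-05) and Cenpj 1.36-fold (adjusted p = 0.00139). Nedd1 (log2 fold change 0.05 ± 0.07, adjusted p = 0.534) and Cep135 (-0.02 ± 0.12, adjusted p = 0.868) did not pass. The median over the 10 genes was 0.82, beside -0.001 over all tested genes. The same 8 genes did not overlap between formats, all higher in spheroids; 78.9% of tested genes did not overlap, 40.0% being higher and 38.9% lower in spheroids. The number of calls was thus near the background for both directions together, and all were upward. These 8 calls held under all 23 alternative analyses.

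At 48 h the genes split. Over all tested genes 57.9% passed, 31.6% upwards and 26.4% downwards; of the 10, 4 rose and 2 fell, a total close to that background. Pcnt rose 1.60-fold (log2 fold change 0.68 ± 0.11, edgeR adjusted p = 4.08e-05) and Tubg1 with Tubg2 1.34-fold (0.42 ± 0.08, adjusted p = 0.000346), and these held in all 23 alternatives. Cep152 rose 1.34-fold (0.43 ± 0.15, adjusted p = 0.0237) and Plk4 1.17-fold (0.23 ± 0.10, adjusted p = 0.0483). Stil fell by 0.37 ± 0.11 on the log2 scale (adjusted p = 0.00708) and Cenpj by 0.27 ± 0.11 (adjusted p = 0.0493). Cep192 (0.11, adjusted p = 0.397), Cdk5rap2 (0.16, adjusted p = 0.202), Cep135 (-0.23, adjusted p = 0.117) and Nedd1 (-0.15, adjusted p = 0.0841) did not pass. So the estimates for Plk4 and Stil, partners in one step, differed in sign at this time, though the call of Plk4 was lost in 13 of 23 alternatives. Groups did not overlap in CPM for 6 genes, 4 higher in spheroids (Plk4, Cep152, Pcnt, Tubg1) and 2 lower (Stil, Nedd1), beside 60.0% of all tested genes, 32.7% higher and 27.3% lower.

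**Figure D3:**
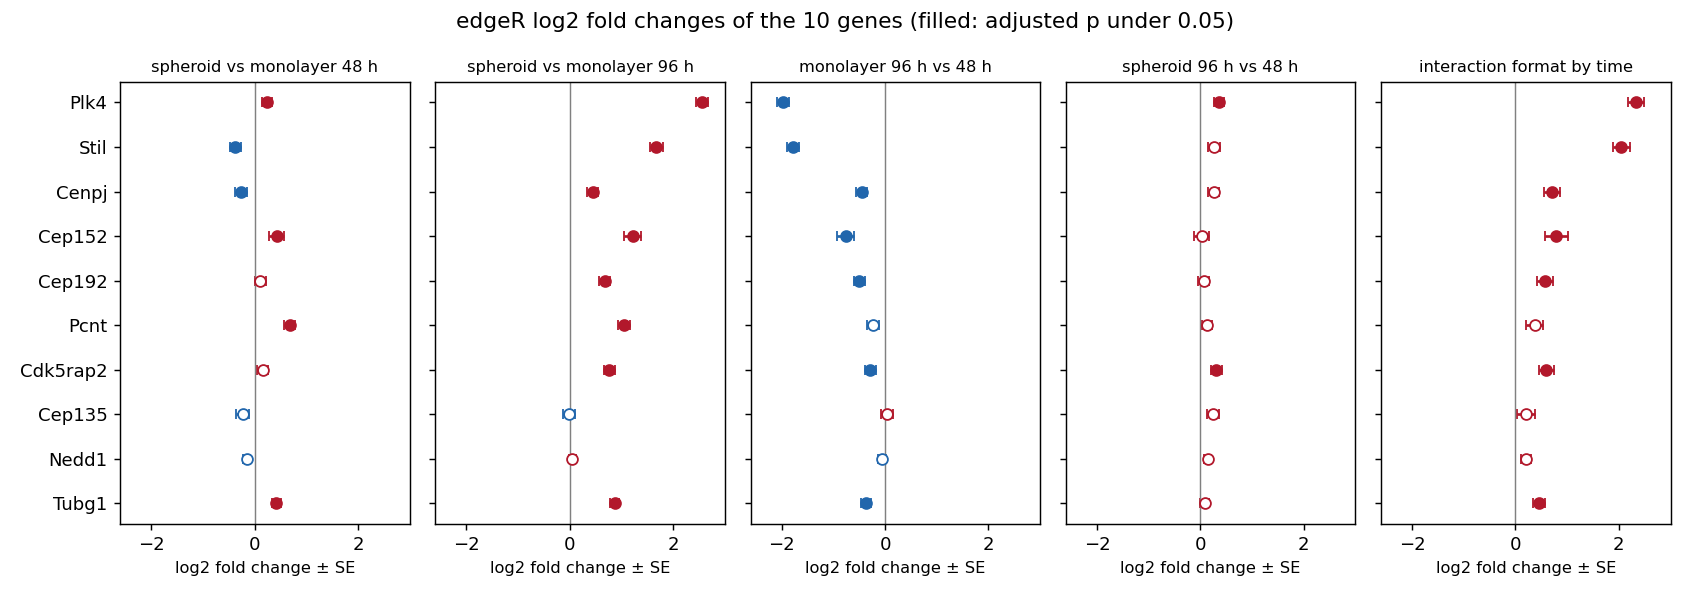
Log2 fold changes (horizontal axis, with SE bars) of the 10 genes in the 4 comparisons and in the difference between the spheroid effects at 96 h and 48 h. Filled points passed an adjusted p of 0.05; at 96 h 8 filled points lie to the right of 0, led by Plk4 at 2.56, and at 48 h 4 lie to the right and 2 to the left.

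The smaller calls at 48 h were not steady. That of Plk4 was lost in 13 of 23 alternatives, with adjusted p from 0.00457 to 0.188; without one monolayer at 48 h it was 0.0872 (replicate 1) or 0.162 (replicate 2), without one spheroid at 48 h 0.188, 0.0505 or 0.0694 (replicates 1, 2 and 3), without monolayer replicate 2 or 3 at 96 h 0.0628 or 0.052, and without spheroid replicate 1 at 96 h 0.0594. That of Cenpj was lost in 16 of 23, with adjusted p from 0.0122 to 0.239; it was 0.0773 or 0.135 without monolayer replicate 1 or 3 at 48 h, 0.157 without spheroid replicate 2 and 0.157 without replicate 3 at 48 h, 0.0545 or 0.0503 without monolayer replicate 1 or 2 at 96 h, and 0.0596, 0.0562 or 0.0583 without spheroid replicate 1, 2 or 3 at 96 h. Cep152 lost its call without monolayer replicate 2 (0.0847) or spheroid replicate 1 (0.076) or 3 (0.09) at 48 h, and with DESeq2 (0.0532). Stil lost it with total count scaling (0.0507) and with limma on log2 FPKM (0.0976), and kept it in the other 21. With the length trend fitted out Plk4 did not pass (0.21, adjusted p = 0.06). Nedd1 passed as lower with it fitted out (-0.18, adjusted p = 0.0322), with DESeq2-type size factors (-0.20, adjusted p = 0.0312) and without monolayer replicate 3 (-0.20, adjusted p = 0.0385), and Cep135 passed as lower without spheroid replicate 1 (-0.38, adjusted p = 0.0149).

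With time in monolayers, from 48 h to 96 h, 7 of the 10 genes fell and none rose; 61.3% of all tested genes passed, 30.1% upwards and 31.3% downwards. Plk4 fell by 1.97 ± 0.12 on the log2 scale (a 3.91-fold drop, edgeR adjusted p = 1.13e-10) and Stil by 1.78 ± 0.12 (3.43-fold, adjusted p = 8.56e-10). Cep152 fell by 0.76 (adjusted p = 0.000857), Cep192 by 0.50 (adjusted p = 0.000967), Cenpj by 0.45 (adjusted p = 0.00198), Tubg1 with Tubg2 by 0.37 (adjusted p = 0.00155) and Cdk5rap2 by 0.29 (adjusted p = 0.0302). Pcnt (-0.24, adjusted p = 0.0831), Nedd1 (-0.06, adjusted p = 0.481) and Cep135 (0.04, adjusted p = 0.775) did not pass. The 2 initiators of duplication thus had the largest drops of the 10. For 6 genes every 96 h monolayer lay below every 48 h monolayer, and for none the reverse. Of all tested genes 63.8% did not overlap, 31.8% lower and 32.0% higher at 96 h. Pcnt passed in 3 of 23 alternatives. Without replicate 3 of the 48 h monolayers it fell by 0.40 (adjusted p = 0.000604), and with the length trend fitted out by 0.50 (adjusted p = 1.61e-05). With all libraries and no filter beyond a total count above 0 it fell by 0.25 (adjusted p = 0.0293). The call of Cdk5rap2 was lost in 9 of 23 alternatives, among them those without monolayer replicate 1 (0.109) or 2 (0.122) at 48 h and without replicate 1 (0.0908) or 2 (0.0744) at 96 h. Total count scaling ended that of Tubg1 (adjusted p = 0.0705), and limma on log2 FPKM that of Cenpj (0.0601).

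In spheroids, over the same interval, 2 of the 10 genes rose and none fell, beside 39.8% of tested genes that passed, 19.3% upwards and 20.5% downwards. Plk4 rose 1.29-fold (log2 fold change 0.36 ± 0.09, edgeR adjusted p = 0.00432), a call kept in all 23 alternatives, and Cdk5rap2 rose 1.24-fold (0.31 ± 0.10, adjusted p = 0.0198). The other 8 lay between 0.03 (Cep152) and 0.26 (Stil, adjusted p = 0.0619; Cenpj, 0.0703). For 6 genes, Plk4, Stil, Cenpj, Pcnt, Cdk5rap2 and Nedd1, every 96 h spheroid lay above every 48 h spheroid, and for none below. Of all tested genes 53.8% did not overlap, 27.6% higher and 26.2% lower at 96 h. The call of Cdk5rap2 was lost without spheroid replicate 1 (0.0542) or 3 (0.0964) at 48 h or replicate 3 at 96 h (0.0798), and with limma on log2 FPKM (0.0637). Stil passed in 7 alternatives, among them that with the length trend fitted out (0.0241) and those without monolayer replicate 1 (0.0335) or 3 (0.0244) at 48 h and without replicate 1 (0.048) or 3 (0.0488) at 96 h. Cenpj (0.0191) and Cep135 (0.0158) passed without spheroid replicate 1 at 48 h.

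The spheroid effect at 96 h was tested against that at 48 h in the same fit. It was larger at 96 h for 7 of the 10 genes and smaller for none, beside 53.3% of tested genes that passed, 26.9% upwards and 26.4% downwards. The difference was a log2 value of 2.33 ± 0.15 for Plk4 (edgeR adjusted p = 4.46e-10) and 2.04 ± 0.16 for Stil (adjusted p = 9.04e-09). It was 0.79 for Cep152 (adjusted p = 0.00612), 0.71 for Cenpj (adjusted p = 0.000939), 0.60 for Cdk5rap2 (adjusted p = 0.00248), 0.56 for Cep192 (adjusted p = 0.00531) and 0.45 for Tubg1 with Tubg2 (adjusted p = 0.00411). Pcnt (0.37, adjusted p = 0.0552), Cep135 (0.21, adjusted p = 0.313) and Nedd1 (0.21, adjusted p = 0.104) did not pass. Pcnt, already higher in spheroids at 48 h, passed in 3 of 22 alternatives. It did so with no filter beyond a total count above 0 (0.40, adjusted p = 0.0119) and without monolayer replicate 3 at 48 h (0.53, adjusted p = 0.000495). It also passed with the length trend fitted out (0.66, adjusted p = 2.17e-05). Nedd1 also passed with that trend fitted out (0.29, adjusted p = 0.0154). Under total count scaling Cep192 (adjusted p = 0.0565) and Tubg1 (0.0816) did not pass, and with limma on log2 FPKM neither did Tubg1 (0.0586) nor Cdk5rap2 (0.0562). The comparisons share libraries, so their counts are not independent of each other.

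The balance among partners in one step is given as FPKM ratios within a library, as a description; differences in these ratios were not tested. Stil over Plk4 was 0.764, 0.736 and 0.562 in monolayers and 0.440, 0.457 and 0.473 in spheroids at 48 h. At 96 h it was 0.716, 0.808 and 0.811 in monolayers and 0.425, 0.484 and 0.356 in spheroids. At each time every monolayer thus had more Stil per Plk4 than every spheroid. Plk4 over its anchor Cep192 was 0.917 ± 0.0433 in monolayers and 1.17 ± 0.0855 in spheroids at 48 h, and 0.352 ± 0.0358 and 1.27 ± 0.209 at 96 h (SD, n = 3 each). Cep152 over Plk4 was 0.398 ± 0.121 in the 96 h monolayers and 0.163 ± 0.0238 to 0.204 ± 0.0263 in the other 3 groups. Pcnt over Plk4 was 1.51 ± 0.179 in the 96 h monolayers and 0.469 ± 0.0778 to 0.617 ± 0.0925 elsewhere. The 96 h monolayers were thus the group in which Plk4 RNA was low against the RNA of Cep192, Cep152 and Pcnt. Cep152 had only 28 counts in replicate 2 of that group, and protein was not measured.

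**Figure D4:**
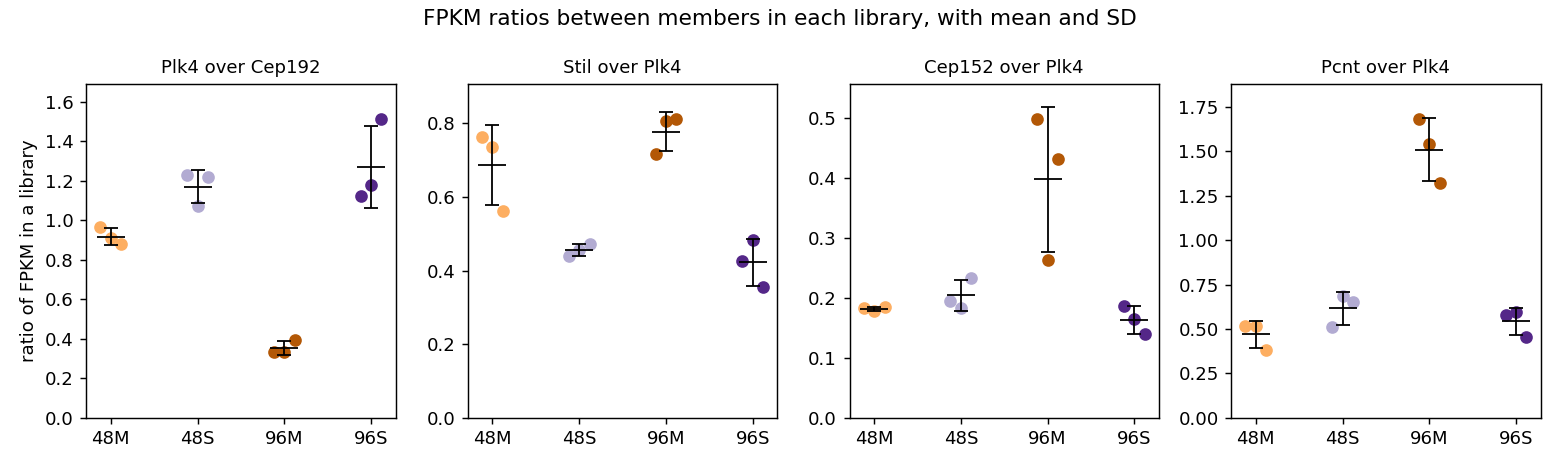
Ratios of FPKM between pairs of the genes in each library (vertical axes, from 0), by group, with mean and SD of 3 replicates. Plk4 over Cep192 is lowest in 96M, at 0.331 to 0.393, and Stil over Plk4 is higher in every monolayer than in any spheroid of the same time.

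The other genes of the centrosome were taken from lists chosen by function, and their counts stand against the 73.8% of all tested genes that passed at 96 h (37.3% up, 36.5% down) and the 57.9% at 48 h (31.6% up, 26.4% down). Of 31 further centriole assembly genes, 19 rose and 4 fell in spheroids at 96 h (median log2 fold change 0.38), and 13 rose and 5 fell at 48 h (0.11). The shares that passed, 74.2% and 58.1%, are those of the background. Sass6, whose product forms the cartwheel of the new centriole beside STIL, rose 5.24-fold at 96 h (log2 fold change 2.39 ± 0.16, edgeR adjusted p = 1.44e-10), its mean being 3.39 CPM in monolayers against 17.7 CPM in spheroids. Poc1a, a centriole stability protein, rose by a log2 value of 3.05 and Tedc1, of a complex that holds the centriole triplets, by 1.84. At 48 h the largest changes on the list were those of Wdr90 (1.33), Tubd1, δ-tubulin (0.87), and Tedc2 (0.80), all higher in spheroids. Cep97, a cap protein that restrains centriole growth, went the other way and fell by 1.36 at 96 h (adjusted p = 1.68e-07), from 17.5 to 6.85 CPM; it was singled out after its values were seen.

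Of 16 γ-tubulin complex and augmin genes, of which Tubg2 shares its row with Tubg1, 11 rose and 1 fell at 96 h (median 0.66), and 8 rose and none fell at 48 h (0.29). Augmin, which brings γ-tubulin to the sides of spindle microtubules, supplied the largest changes at 96 h: Haus5 rose by a log2 value of 2.76, Haus4 by 1.48 and Haus7 by 1.42. At 48 h Haus5 (1.03), Haus8 (0.75) and Tubgcp6, a ring complex subunit (0.58), led the list. Of 18 matrix, linker and satellite genes, 6 rose and 7 fell at 96 h (median 0.01) and 3 rose and 6 fell at 48 h (-0.05); the share that passed at 96 h, 72.2%, and its split were those of all tested genes. Cep170, of the mature centriole and microtubules, fell by 2.39 at 96 h (adjusted p = 4.27e-13), from a monolayer mean of 147.7 CPM to a spheroid mean of 28.1 CPM, and by 1.19 at 48 h. Ssx2ip rose by 1.39 and Lrrc45, a linker protein, by 1.18 at 96 h, while Cntln (-0.94) and Ninl (-0.53) fell at 48 h. Of 10 appendage genes, 7 rose and 2 fell at 96 h (0.58): Cep128 rose by 1.95 and Cep89 by 1.38, and Ttbk2, the kinase that starts cilium growth, fell by 1.08. At 48 h, 4 rose and 2 fell (0.16), among them Fbf1 (0.60) and Cep128 (0.49) upwards and Ttbk2 (-0.63) downwards.

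**Figure D5:**
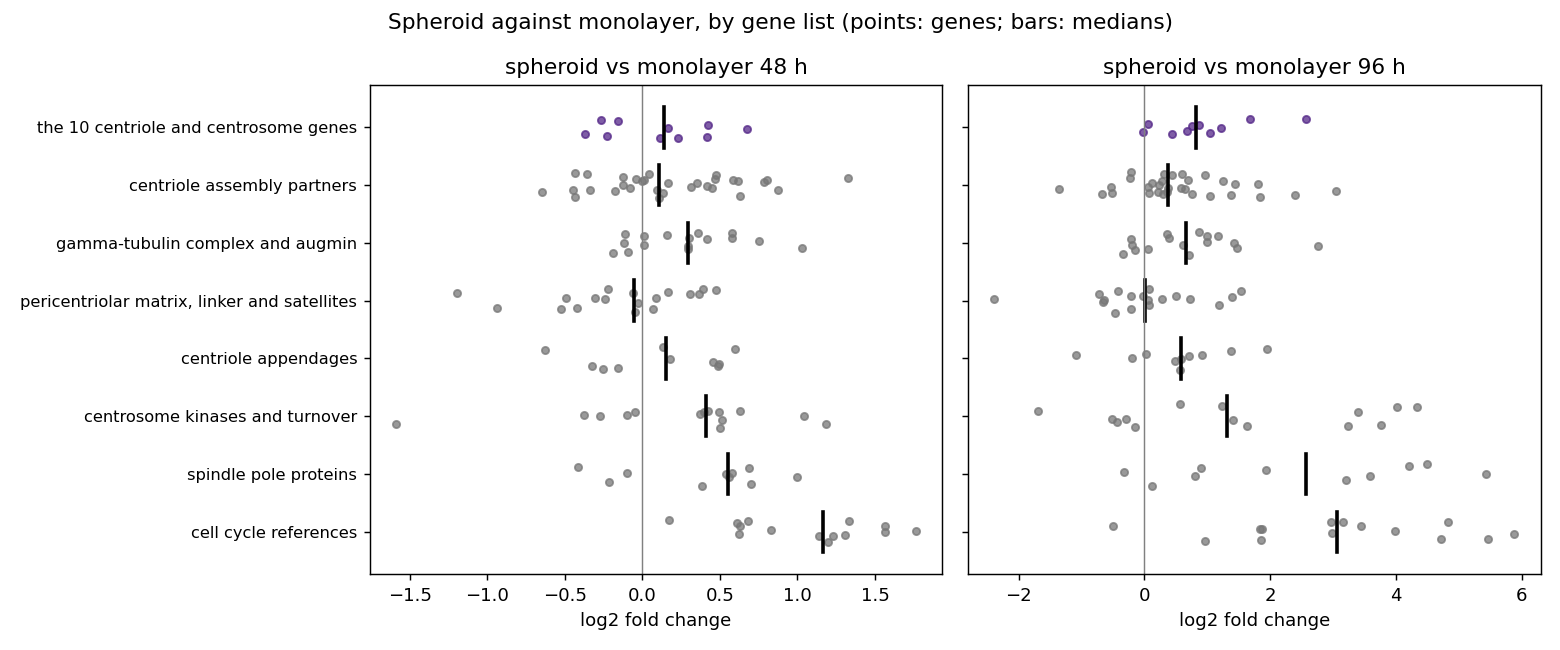
Log2 fold changes of the genes on each list in spheroids against monolayers at 48 h and at 96 h, one point per gene, with the median of each list. At 96 h the medians run from 0.01 for the matrix, linker and satellite genes to 3.07 for the cell cycle genes, with 0.82 for the 10 genes.

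Of 14 kinase and turnover genes, 9 rose and 4 fell at 96 h (median 1.32), and 9 rose and 3 fell at 48 h (0.41). Among the relatives of Plk4, 1 rose, 1 fell and 1 did not pass. Plk1, the mitotic kinase that matures centrosomes, whose row also names Dctn5, rose by a log2 value of 1.41 at 96 h and 0.42 at 48 h. Plk2, a stress-responsive relative, fell by 1.69 at 96 h and 1.59 at 48 h, its monolayer mean at 48 h being 396.7 CPM against 131.7 CPM in spheroids, and Plk3 did not pass (-0.15 at 96 h, adjusted p = 0.114; -0.10 at 48 h, adjusted p = 0.324). The separation and maturation kinases Nek2 (4.34) and Aurka (4.02), the protease Espl1 that lets centrioles part (3.76), Cdk1 (3.24), Cdk2 (1.64) and Nek7 (0.56) all rose at 96 h, and at 48 h too, by 0.37 (Cdk2) to 1.04 (Espl1). Among ubiquitin ligases that limit duplication, Ccnf, cyclin F, which removes CP110, rose by 3.39 at 96 h and 1.19 at 48 h, and Trim37 by 1.23 and 0.40. Btrc, the ligase subunit that turns over PLK4, whose row also names Fbxw11, fell by 0.44 at 96 h and 0.27 at 48 h. Fbxw5, which acts on SAS-6, fell by 0.52 at 96 h and did not pass at 48 h (-0.05, adjusted p = 0.616), and the deubiquitinase Usp33 fell by 0.30 and 0.37.

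Of 10 spindle pole genes, 8 rose and 1 fell at 96 h (median 2.57, beside 0.82 for the 10 centrosome genes), with Aspm at 5.43, Kif11 at 4.50 and Tpx2 at 4.21, and 7 rose and 2 fell at 48 h (0.55), with Kif11 at 1.00, Aspm at 0.70 and Hmmr at 0.69. Of 14 cell cycle references, 13 rose and 1, E2f1, fell (-0.50) at 96 h (median 3.07), and 13 rose and E2f1 did not pass (0.17, adjusted p = 0.127) at 48 h (1.17). Among the 10 centrosome genes, Stil and Cenpj fell at 48 h, and Nedd1 and Cep135 did not pass at 96 h. The 48 h call of Cenpj was lost in 16 of 23 alternatives, and a difference from the cell cycle references was not tested. The summed level of the cell cycle references was 919.3 to 931.5 CPM in monolayers and 1852 to 1858 CPM in spheroids at 48 h, and 245.1 to 292.8 CPM in monolayers and 2017 to 2162 CPM in spheroids at 96 h. The mitotic genes Ccnb2 (5.88), Ccnb1 (5.46), Ccna2 (4.83), Mki67 (4.71), Top2a (3.98) and Foxm1 (3.44) rose more at 96 h than those of replication and its entry, Mcm5 (3.16), Mybl2 (2.98), Rrm2 (2.97), Mcm2 (1.87), Pcna (1.86), Ccne2 (1.83) and Ccne1 (0.96). At 48 h the order was another, with Ccne2 (1.77), Rrm2 (1.56), Mybl2 (1.56), Ccna2 (1.33), Mki67 (1.30), Mcm5 (1.23), Ccne1 (1.197) and Mcm2 (1.14) above Ccnb1 (0.83), Top2a (0.68), Ccnb2 (0.63), Pcna (0.62) and Foxm1 (0.61). The order of the groups was the same for Plk4 as for the summed level of these genes, and the part of the share of dividing cells in its level was not tested.

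The genes most like Plk4 over the 12 libraries, by Pearson correlation of log2 CPM among 11119 genes, were Hn1l (0.996), Tacc3 (0.995), Cenpf (0.995), Ect2 (0.995) and Nusap1 (0.994). Those most like Tubg1 with Tubg2 were Nmral1 (0.983), Tkt (0.983), Lsm6 (0.983), Rfc5 (0.981) and Xab2 (0.981). These are descriptions: the libraries form 4 groups, and such values rest mainly on the differences between group means. Likeness of shape was not likeness of size, since Cenpf rose by a log2 value of 5.05 and Hn1l by 1.31 at 96 h, on either side of the 2.56 of Plk4.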

How the data were processed

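RNA was measured in 12 libraries. The submitters' processing notes name RSEM 1.2.30, Bowtie 1.0.1, bcl2fastq 2.15.0 and the build mm9; they do not name the strand setting. The deposited counts are whole numbers, taken as rounded RSEM expected counts from the tool named, and were deposited by the authors beside log2 values of FPKM to which 1 was added and a list of symbols per row. Of the 28427 rows, 2093 carry several symbols. RSEM shares reads among similar genes, so values of paralogs are uncertain.

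Genes were found by symbol or synonym, and several synonyms were corrected after the tables were opened. Of 181 listed symbols, 1 (Cdc20b) had no row, and the row read as Pifo may be another gene. The members and lists were chosen with earlier results of these data known. Counts were fitted in R 4.3.3 with edgeR 4.0.16 (quasi-likelihood test, TMM factors 0.923 to 1.07, filterByExpr at a count of 10 and a total of 15, group as the only term, 12 libraries in 1 fit, 2-sided). P-values were adjusted by Benjamini-Hochberg over the 13951 tested genes in each of 5 contrasts, with a threshold of 0.05; rose and fell are used of what passed. An SE is the log2 fold change divided by the square root of F and can be too small at low counts. Effective lengths came from deposited counts and FPKM, for 13334 tested rows. Libraries of a group differed beyond sampling noise (chi-square per degree of freedom 2.41 to 17.2).

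Named genes were all members, the kinase and turnover and cell cycle lists in full, the 3 largest changes per other pathway list in each format comparison (adjusted p under 0.05, mean log2 CPM of at least 2), and the 5 genes most correlated with Plk4 and with Tubg1. Alternatives were 3 other scalings, 2 filters, DESeq2 1.42.0, limma 3.58.1 on log2 FPKM and with voom weights, a fit of only the groups compared, a replicate block, leaving out each library and, added after seeing the data, offsets that remove each library's length trend. The test was also run on counts simulated with the same spread for every gene and no length trend. That run does not cover the length trends of these data.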

Additional observations from a re-analysis of the deposited data

Results flagged for a closer look

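For 7 genes the spheroid effect at 96 h differed from that at 48 h by a test of the difference itself (edgeR, 12 libraries). The values, on the log2 scale, were 2.33 for Plk4, 2.04 for Stil, 0.79 for Cep152, 0.71 for Cenpj, 0.60 for Cdk5rap2, 0.56 for Cep192 and 0.45 for Tubg1 with Tubg2. For Stil and Cenpj the sign of the effect also turned, from -0.37 and -0.27 at 48 h to 1.67 and 0.44 at 96 h. Of the 2, the 48 h value of Cenpj is the less steady, its call being lost in 16 of 23 alternatives. Stil and Plk4 ended with differences of similar size, although at 48 h Plk4 had a value of 0.23 and Stil one of -0.37. The 48 h call of Plk4 was itself lost in 13 of 23 alternatives.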

How the results depend on the processing

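Of 1140 values of the 10 genes under the alternatives, 1046 kept their direction and their side of the threshold, and 18 turned sign, none of which had passed the test (lowest adjusted p 0.21). At 48 h Cep192 was -0.029 with limma on log2 FPKM and -0.021 without monolayer replicate 3 (-0.021 to 0.239 over the libraries left out). At 96 h Nedd1 was -0.043 with upper-quartile scaling, -0.028 with total counts, -0.01 with the stricter filter and -0.037 with log2 FPKM, and Cep135 was 0.001 without the filter, 0.022 without monolayer replicate 2, 0.005 without spheroid replicate 2 (-0.061 to 0.022 over the libraries left out) and 0.149 with length offsets. With time in monolayers Nedd1 was 0.11 with total counts, 0.11 with log2 FPKM and 0.007 without 48 h replicate 2 (-0.119 to 0.007), and Cep135 was -0.007 without 96 h replicate 2 (-0.007 to 0.083) and -0.125 with length offsets. With time in spheroids Cep152 was -0.054 without 48 h replicate 2 and -0.045 without 96 h replicate 1 (-0.054 to 0.103). The difference between times of Nedd1 was -0.006 with log2 FPKM. DESeq2 called 3 of the 10 genes at 48 h instead of 6; the cause was not tested. Leaving out a library gave 3 to 6 called genes at 48 h (3 without spheroid replicate 3), 8 at 96 h, 6 to 8 with time in monolayers, 1 to 3 with time in spheroids (1 without 48 h or 96 h spheroid replicate 3) and 7 to 8 for the difference. Length offsets gave 6, 8, 8, 3 and 9. Total counts moved the median of all genes from 0.05 to 0.16 at 48 h, from 0.01 to 0.18 with time in monolayers and from -0.02 to -0.21 for the difference, and the share of calls that were upward from 54.5% to 65.1%, from 49.0% to 66.2% and from 50.5% to 34.2%; with log2 FPKM these shares were 65.2%, 65.2% and 35.6%. No pairing by replicate number was seen: none of 18 same-numbered pairs of deviations correlated above 0.1, and a library was closest to its own number in 9 of 36 cases. With 3 libraries in a group, such correlations cannot exclude a pairing. With the replicate block 6, 8, 7, 2 and 7 of the genes were called, as without it. Reads carried no molecular identifiers, and Cep152, the least abundant gene, had 28 to 180 counts.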

Other observations

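A list of 8 genes, all of them tested, covered those that act when centrosomes are lost or extra or mitosis is slow. Of these, 3 rose and 2 fell in spheroids at 96 h (median log2 fold change 0.13), and 1 rose and 2 fell at 48 h (-0.03). The shares that passed were 62.5% and 37.5%, beside 73.8% and 57.9% of all tested genes. On a list of 8 genes such gaps rest on few calls, and they were not tested. Casp2, the protease activated by extra centrosomes, rose by 0.46 at 96 h (edgeR adjusted p = 5.58e-05), from a mean of 27.9 to 38.5 CPM. Pidd1, which activates it, rose by 0.93 at 48 h (adjusted p = 0.000756) and did not pass at 96 h (-0.06, adjusted p = 0.783). Mdm2, a target and inhibitor of p53, was 4.44-fold lower in spheroids at 96 h and 1.41-fold lower at 48 h, and was 487.2 ± 71.4 CPM (SD, n = 3) in monolayers and 109.8 ± 4.10 CPM in spheroids at 96 h. Cdkn1a, p21, another p53 target, fell by 1.29 and 0.57. The 96 h monolayers, lowest in Plk4 and Stil, were the group with the most Mdm2; its lowest library there had 409.7 CPM, above the 186.1 CPM of the highest library of any other group.

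Foxj1, a regulator of motile cilia singled out after its values were seen, fell by 2.01 in spheroids at 48 h (adjusted p = 4.3e-10) and rose by 1.10 at 96 h (adjusted p = 6.28e-07). Its means were 31.8 and 7.81 CPM in monolayers and spheroids at 48 h and 9.81 and 21.3 CPM at 96 h.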
